A study of Mus musculus with 34 samples.

Results

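Transcripts of 9 CC chemokine genes that attract monocytes and related cells (Ccl2, Ccl3, Ccl4, Ccl6, Ccl7, Ccl8, Ccl9, Ccl12 and Ccl24) were followed through 34 mouse libraries. The genes were taken by symbol from a table of 24475 genes, and all 9 had enough counts to be tested in every comparison. Cells came from C57/Bl6 mice, and those of the sorted groups from mice with a tumor of 1 of 2 lines, LLC (Lewis lung carcinoma) and MC38 (colon adenocarcinoma). The 6 groups sorted from mice held 4 libraries each: Sca1+ monocytes of MC38 tumors, which also carried Ly6C and CD88 and were named TuMon1; Sca1- monocytes of LLC tumors with the same other markers, named TuMon2; macrophages of either tumor; and Ly6C+ spleen monocytes of mice with either tumor. Bone marrow monocytes in culture made up the other 3 groups: 4 untreated control libraries, 3 with LLC supernatant, labelled Sca1- like TuMon2, and 3 with MC38 supernatant, labelled Sca1+ like TuMon1. Each tumor line supplied 1 of the 2 monocyte subsets, so that subset and tumor line cannot be told apart. The labels give neither the age of the mice, the dose or time of the supernatants, nor whether replicates were separate animals or cultures, and p-values therefore measure only the spread between these libraries.

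Chemokines are small secreted proteins that draw leukocytes along a gradient through receptors coupled to G proteins. Ccl2, Ccl7 and Ccl12 act on Ccr2, the receptor with which Ly6C+ monocytes leave the bone marrow and enter inflamed tissue and tumors. Ccl8 is a relative of these genes whose mouse product acts mainly on Ccr8. Ccl3 and Ccl4 are the macrophage inflammatory proteins, and Ccl3 acts on Ccr1. Ccl6 and Ccl9 are close relatives that act on Ccr1 and are made in quantity by resting myeloid cells. Ccl24 encodes an eotaxin, whose receptor Ccr3 is best known from eosinophils, and is a product of alternatively activated macrophages.

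The genes lie in 3 places of the GRCm38.p6 assembly. Ccl2, Ccl7, Ccl12 and Ccl8 follow each other on the plus strand of chromosome 11, from base 82035577 to base 82116799. Ccl9 and Ccl6 on the minus strand, and Ccl3 (minus) with Ccl4 (plus), lie between bases 83572917 and 83664683 of the same chromosome, and Ccl24 lies on the minus strand of chromosome 5, from 135569935 to 135573123. Each gene is protein coding with 3 exons, or 4 for Ccl6 and Ccl9. The annotated spans of Ccl3 and Ccl4 overlap on opposite strands. Libraries were made with a stranded kit, but whether strand was used in counting is not given in the sources used here, so reads in that overlap cannot be assigned with certainty. Estimated counts of Ccl9 were not whole in 34 of 34 libraries and those of Ccl6 in 14, as happens where reads are shared between similar sequences, so the levels of both are uncertain to that extent.

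Promoter sequence from RefSeq (GRCm38.p6) matched 5 of the 9 genes. The 250 bases before the annotated start are shown for Ccl8 and Ccl12, neighbours that differed most between the supernatants, and for Ccl6 and Ccl9, whose levels resembled each other. Capitals mark matches, on either strand, to TATAAA (the box bound by TBP), GGANNTTCC (NF-kappaB type), GAAANNGAA (ISRE type, bound by interferon factors), TTCNNNGAA (GAS type), TGANTCA (AP-1 type) and GAGGAA (ETS type, the core bound by PU.1).
Ccl8, chr11:82114935-82115184, plus strand: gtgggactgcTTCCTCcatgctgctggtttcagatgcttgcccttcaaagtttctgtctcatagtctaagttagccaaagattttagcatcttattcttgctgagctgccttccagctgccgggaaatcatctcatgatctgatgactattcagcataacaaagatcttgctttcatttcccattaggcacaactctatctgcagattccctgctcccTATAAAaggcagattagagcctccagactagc
Ccl12, chr11:82101595-82101844, plus strand: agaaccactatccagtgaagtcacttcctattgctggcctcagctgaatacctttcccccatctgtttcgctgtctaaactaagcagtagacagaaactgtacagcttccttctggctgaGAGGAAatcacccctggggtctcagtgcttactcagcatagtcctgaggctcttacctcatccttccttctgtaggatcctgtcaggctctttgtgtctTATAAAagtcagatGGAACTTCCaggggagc
Ccl6, chr11:83593088-83593337, minus strand: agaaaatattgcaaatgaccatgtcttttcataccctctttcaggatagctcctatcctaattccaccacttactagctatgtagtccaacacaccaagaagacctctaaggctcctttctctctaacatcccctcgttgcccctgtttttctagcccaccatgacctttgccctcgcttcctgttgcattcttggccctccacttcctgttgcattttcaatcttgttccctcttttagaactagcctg
Ccl9, chr11:83578637-83578886, minus strand: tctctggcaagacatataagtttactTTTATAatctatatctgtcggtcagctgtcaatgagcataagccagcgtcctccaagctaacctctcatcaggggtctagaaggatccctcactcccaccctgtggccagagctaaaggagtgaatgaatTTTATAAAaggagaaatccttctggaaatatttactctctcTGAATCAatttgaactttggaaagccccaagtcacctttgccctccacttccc
Ccl8 and Ccl12 each held TATAAA close to the start, its first base at -32 and -31, a motif found in 12.4% of 32851 promoter windows of this length. Ccl12 also held GGANNTTCC at -17, found in 3.6% of windows, and GAGGAA at -130, found in 23.3%. Ccl8 held GAGGAA on the other strand at -240. In Ccl9 TATAAA matched at -224, -94 and -92, of which the last pair overlap on opposite strands, and TGANTCA at -53, a motif of 6.7% of windows. None of the 6 motifs matched in the Ccl6 window, and neither GAAANNGAA (7.1% of windows) nor TTCNNNGAA (7.0%) matched in the 4 shown. Of the promoters not shown, Ccl3 held GAAANNGAA at -39 and, overlapping it, GAGGAA at -33, both on the other strand. A match describes these letters and is not a measured binding site.

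Library totals ran from 13047724 to 26966603 estimated counts, with 13475 to 16908 genes detected. Macrophage markers set macrophages apart from monocytes of the same tumor. C1qa lay at 1679, 1440, 1741 and 1545 CPM (counts scaled to library size) in LLC macrophages and at 208, 159.7, 217 and 159.8 CPM in TuMon2. TuMon1 libraries held 1313, 1473, 1202 and 1182 CPM of C1qa, between their macrophages (2992, 2717, 3029 and 3037) and spleen monocytes. TuMon1 thus overlapped LLC macrophages in C1qa. The sum of 10 macrophage markers overlapped too, at 9604 to 10540 CPM in TuMon1 and 9803 to 11010 in LLC macrophages. Ly6c2, a gene of the sort marker Ly6C, was at 14.5, 14.9 and 12.2 CPM in the libraries given LLC supernatant, which are labelled Ly6C+, against 1338, 1393 and 1204 CPM with MC38 supernatant. Sums of other markers differed between whole groups. Those of 9 neutrophil markers lay at 1534 to 2468 CPM in LLC and 458.9 to 1931 in MC38 spleen monocytes. They lay at 68.73 to 94.64 in TuMon2 and 24.84 to 30.85 in TuMon1. Fibroblast and endothelial sums lay at 229 to 311.4 CPM in TuMon1 and 49.27 to 76.39 in TuMon2. Epithelial sums lay at 5.596 to 7.832 and 41.27 to 65.57 CPM. Leaving out single libraries does not remove such differences. Several libraries also stood apart from their own groups. LLC spleen replicate 3 held 44.0 CPM of C1qa against 2.26 to 3.07 in the other 3. MC38 spleen replicates 1 to 3 held 6515, 6080 and 10660 CPM of 7 fat cell markers in sum against 21.1 in replicate 4. Control culture replicate 2 held 85.9 CPM of 5 epithelial markers, and MC38 supernatant replicate 3 held 3083 CPM of 9 fibroblast and endothelial markers, against at most 170.1 in the other 2 libraries of that group. Calls of the chemokines that changed without them are given beside the results; the part of macrophage, fat or other foreign transcripts in the chemokine levels was not tested.

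Levels of the 9 genes followed several patterns. Ccl6 and Ccl9 were abundant in every library, with 154, 169.6, 181 and 244 CPM of Ccl6 and 246, 255, 264 and 277 CPM of Ccl9 in the 4 MC38 macrophage libraries, the group with the lowest mean of both. Ccl2, Ccl7, Ccl12 and Ccl4 were low in spleen monocytes and control cultures and high in the other groups. Ccl3 was low in spleen monocytes and high in the tumor groups, and its control cultures overlapped those with MC38 supernatant. Ccl8 and Ccl24 each had a mean far above the rest in 1 group. For Ccl8 it was MC38 supernatant (673 CPM, against 47.1 in MC38 macrophages and 14.2 in TuMon1). For Ccl24 it was TuMon2 (65.2 CPM, against 11.4 in LLC macrophages). Mean Ccl2 in the groups from mice stood in the order TuMon1 (585 ± 57.5 CPM, SD, n = 4), TuMon2 (445 ± 61.4), MC38 macrophages (419 ± 39.6), LLC macrophages (250.1 ± 32.6), LLC spleen (9.24 ± 10.9) and MC38 spleen monocytes (5.28 ± 5.64); TuMon2 overlapped MC38 macrophages and the spleen groups overlapped each other. Ccl7 stood highest in MC38 macrophages (739.8 ± 47.1 CPM, SD, n = 4), then TuMon1 (518 ± 81.8), LLC macrophages (203 ± 32.4) and TuMon2 (143 ± 17.9), the last 2 overlapping. For Ccl12 TuMon1 (295 ± 44.9 CPM, SD, n = 4) overlapped MC38 macrophages (264 ± 56), and LLC macrophages (58.2 ± 15.0) overlapped TuMon2 (34.6 ± 4.08). Ccl8 ran from 47.1 ± 10.1 CPM (SD, n = 4) in MC38 macrophages and 14.2 ± 1.62 in TuMon1 through LLC macrophages (4.32 ± 1.68), MC38 spleen (3.28 ± 2.05) and TuMon2 (1.74 ± 0.790), which overlapped in that order, to LLC spleen (0.144 ± 0.288).

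Ccl3 was at 229 ± 20.9 CPM (SD, n = 4) in MC38 macrophages, 213 ± 30.9 in TuMon1 and 177 ± 10.7 in TuMon2, with overlap between neighbours, and at 97.6 ± 9.80 in LLC macrophages. Its spleen levels, 18.8 ± 9.46 CPM with LLC and 8.16 ± 4.2 with MC38 tumors, overlapped. Ccl4 separated the 4 tumor groups without overlap, in the order TuMon1 (318 ± 33.2 CPM, SD, n = 4), MC38 macrophages (249 ± 17.9), TuMon2 (115 ± 10.8) and LLC macrophages (60.1 ± 10.9). Ccl6 stood in another order: TuMon2 (1606 ± 217 CPM, SD, n = 4), LLC macrophages (888 ± 171), LLC spleen (626 ± 22.4), MC38 spleen (468 ± 77.0), TuMon1 (269 ± 33.1) and MC38 macrophages (187 ± 39.4), with overlap between the last 2 alone. Ccl9 likewise was highest in TuMon2 (1737 ± 160 CPM, SD, n = 4) and LLC macrophages (1016 ± 117), and LLC spleen (467 ± 10.7) overlapped TuMon1 (431 ± 22.9).

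**Figure D1:**
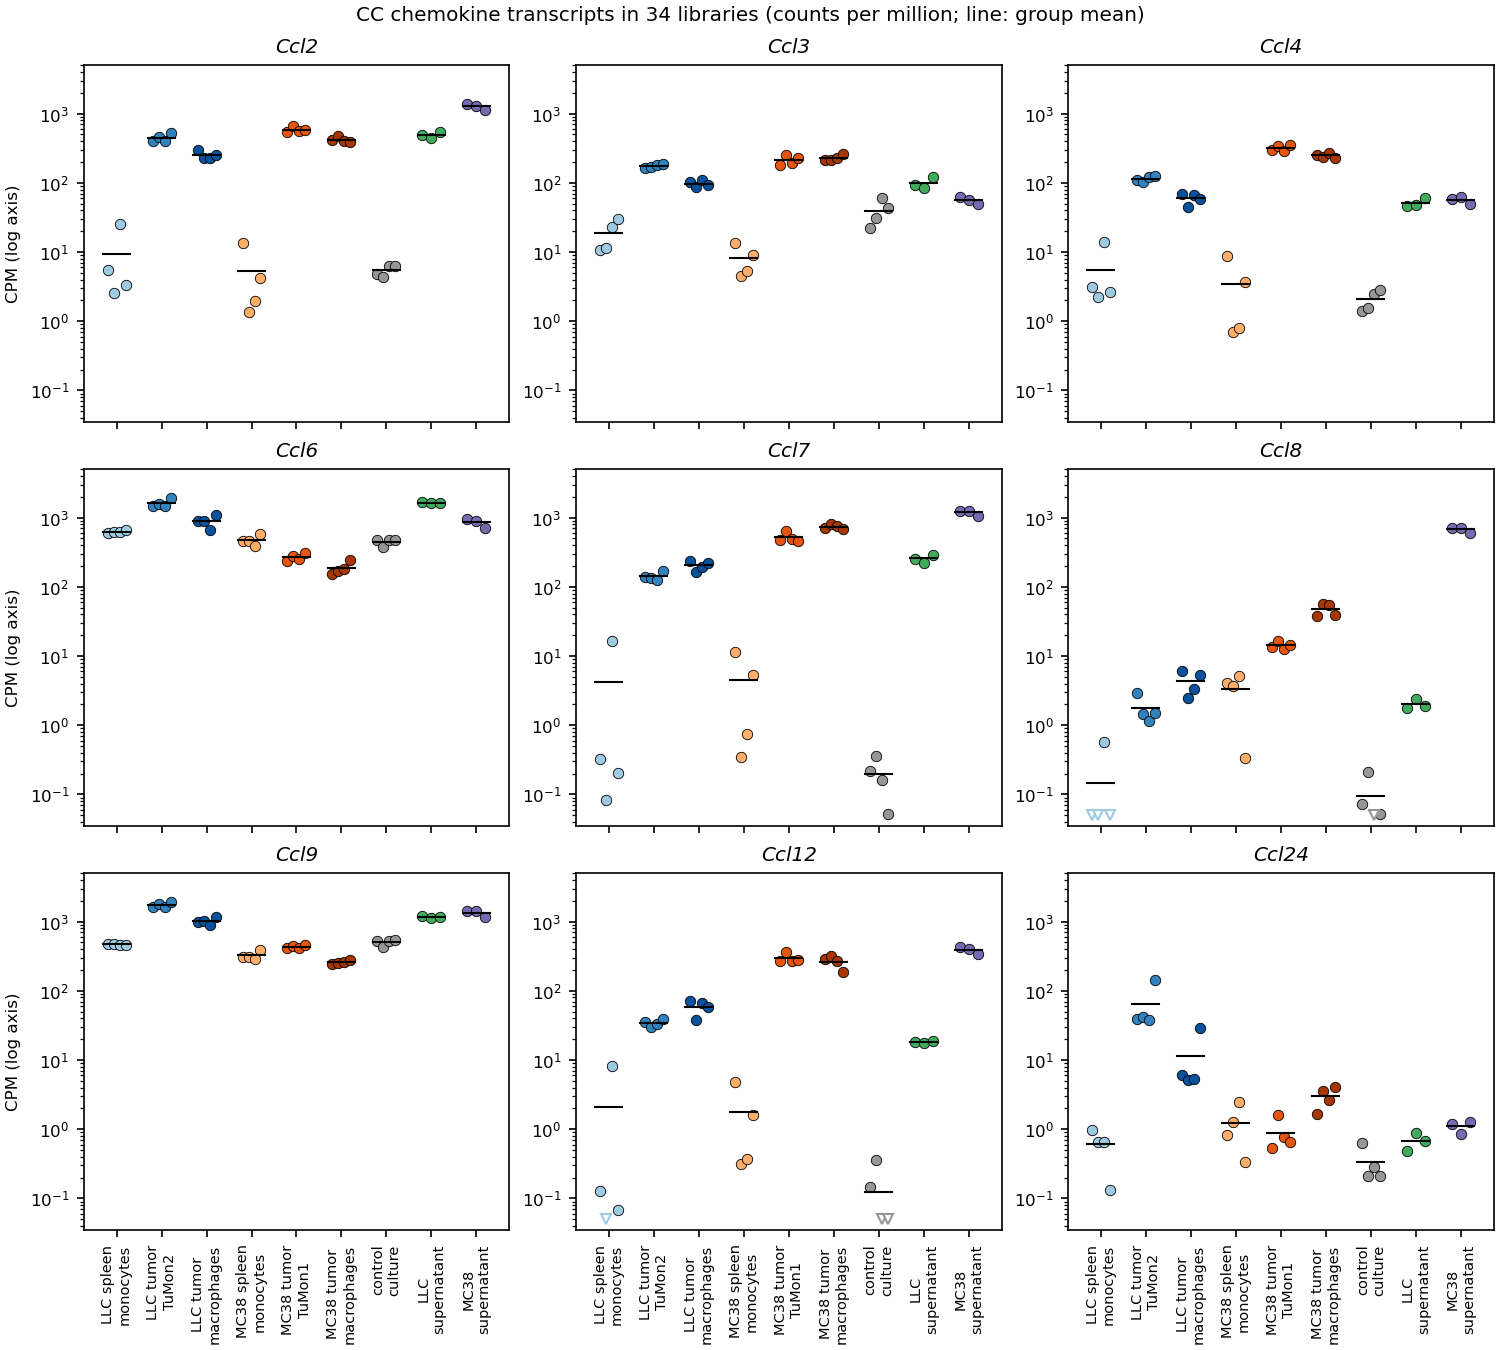
CPM of the 9 chemokines (log axis) in each of 34 libraries, by group; each point is a library, the line is the group mean, and open triangles stand for values under 0.05 CPM. Ccl2 lies at 1.37 to 25.5 CPM in the 8 spleen libraries and at 225 to 667 CPM in the 16 tumor libraries, while the lowest of 34 values of Ccl6 is 154 CPM.

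Divided by transcript length, which allows levels of different genes to be set side by side, the 9 genes summed to 644.5 CPM per kb in LLC and 472 in MC38 spleen monocytes, 2941 in TuMon2, 1860 in LLC macrophages, 3033 in TuMon1 and 2917 in MC38 macrophages. The sums of TuMon1 and TuMon2 were made of different genes. In TuMon2, Ccl6 took 37.9% ± 0.492 (SD, n = 4) of the sum, Ccl9 19.7% ± 0.731 and Ccl2 18.6% ± 0.600. In TuMon1, Ccl2 took 23.7% ± 0.354 (SD, n = 4), Ccl7 21.3% ± 1.58, Ccl12 18.1% ± 0.836 and Ccl4 15.9% ± 1.20, and Ccl6 took 6.18% ± 0.662. Spleen monocytes and control cultures were alike in that Ccl6 and Ccl9 led: Ccl6 took 67.7% ± 4.47 in LLC spleen, 68.9% ± 3.72 in MC38 spleen and 57.8% ± 2.09 in control cultures. Control cultures summed to 542 CPM per kb, cultures with LLC supernatant to 2695 and those with MC38 supernatant to 6289, in which Ccl8 took 21.0% ± 0.441 (SD, n = 3). Shares of 1 sum are not independent, since one gene's rise lowers the rest.

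**Figure D2:**
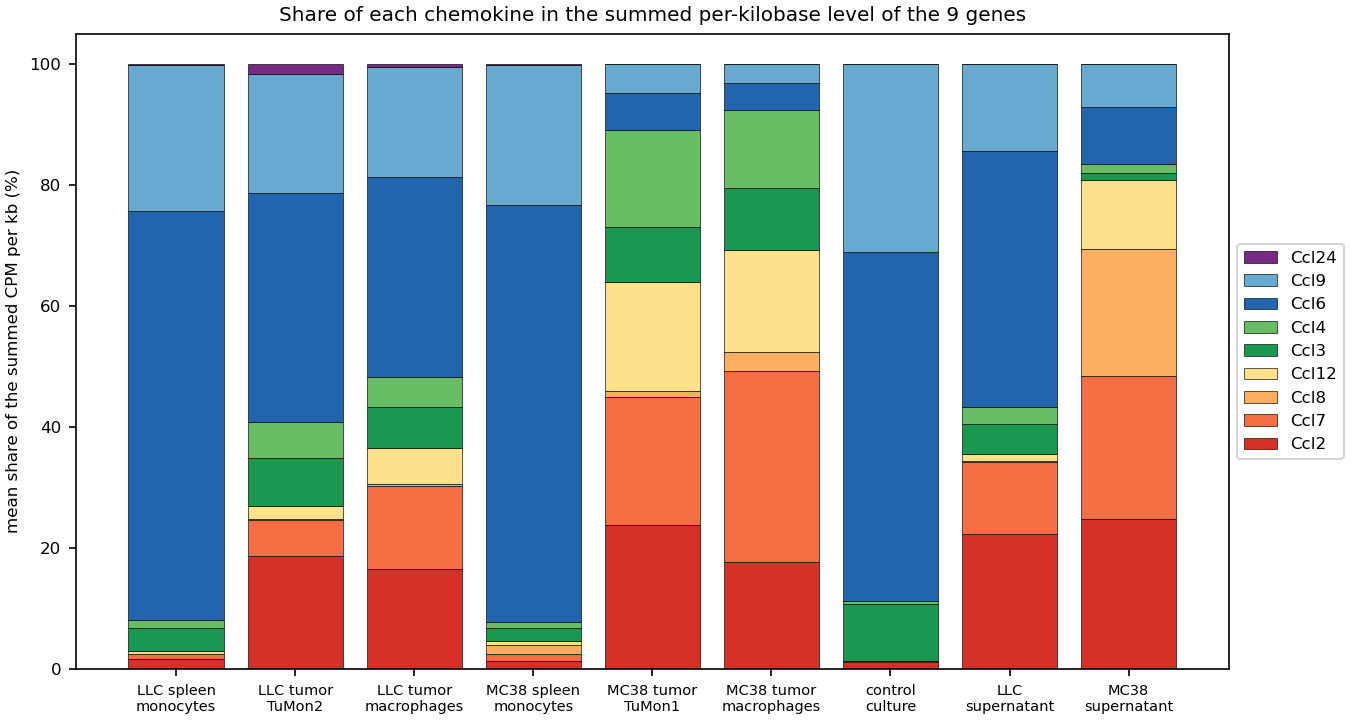
Mean share (%) of each chemokine in the summed CPM per kb of the 9 genes, by group (3 or 4 libraries each). Ccl6 and Ccl9 (blue) fill most of the bar in spleen and control groups, and Ccl2, Ccl7 and Ccl12 (red to yellow) with Ccl3 and Ccl4 (green) most of it in MC38 tumors.

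The comparison of tumor with spleen monocytes asked what marked monocytes once they were in a tumor. Most of the chemokines rose: 9 of 9 genes in LLC tumors, where 28.6% of 13200 genes were called higher and 34% lower, and 7 of 9 in MC38 tumors, where 33.5% of genes were higher and 36.6% lower (edgeR's quasi-likelihood test, Benjamini-Hochberg adjusted p under 0.05). The median log2 difference of the 9 genes was 3.88 in LLC and 4.74 in MC38 tumors, against -0.05 and -0.04 over all genes tested. Ccl2 was at 402, 454, 397 and 529 CPM in TuMon2 and 5.56, 2.54, 25.5 and 3.34 CPM in LLC spleen monocytes, with no overlap. It rose with a log2 difference of 5.56 ± 0.68, adjusted p = 7.04e-07. In MC38 mice it was at 539, 667, 554 and 578 CPM in TuMon1 and 13.5, 1.37, 1.99 and 4.24 in spleen, and rose by 6.85 ± 0.72, adjusted p = 8.56e-08. Without LLC spleen replicate 3, which held macrophage transcripts, the rise of Ccl2 in LLC tumors was 6.88 and that of Ccl4 5.45. Without MC38 spleen replicate 1, the highest of its group in Ccl2, Ccl4, Ccl7 and C1qa, the MC38 rises were 7.89 for Ccl2, 7.69 for Ccl4, 8.09 for Ccl7 and 8.79 for Ccl12.

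Its neighbours followed. Ccl7 was at 481, 639, 491 and 461 CPM in TuMon1 against 11.5, 0.351, 0.750 and 5.29 in MC38 spleen (log2 difference 6.95 ± 1.05, adjusted p = 9.23e-06). In LLC mice it was at 141, 135, 126 and 168 CPM against 0.323, 0.0818, 16.3 and 0.200 in spleen (4.97 ± 0.96, adjusted p = 0.000176). Every tumor library stood above every spleen library, and 1 spleen library was far above the other 3. Without that LLC spleen library, replicate 3, the log2 difference of Ccl7 was 9.54, and that of Ccl12 8.76 in place of 3.88 ± 0.76. Ccl12 rose by 7.54 ± 0.85, adjusted p = 2.3e-07 in MC38 tumors, from 4.83, 0.312, 0.375 and 1.59 CPM in spleen to 267, 362, 273 and 279 in TuMon1. Ccl8 stayed low in LLC mice, at 2.90, 1.45, 1.14 and 1.49 CPM in TuMon2 against 0 counts in 3 spleen libraries and 14 counts in replicate 3 (3.24 ± 0.86, adjusted p = 0.00272). Without replicate 3 the spleen group is at 0 counts, and the fitted log2 difference, 8.07, depends on the prior count. In MC38 mice it was at 13.4, 16.5, 12.8 and 14.2 CPM in TuMon1 and 4.06, 3.67, 5.07 and 0.331 in spleen (2.07 ± 0.47, adjusted p = 0.000602). The 3 spleen libraries with fat cell transcripts held 69, 94 and 135 counts of Ccl8 and the other held 5. Without those 3 the log2 difference was 5.39.

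Ccl3 and Ccl4 rose in both tumors as well. Ccl3 went from 10.7, 11.5, 22.8 and 30.3 CPM in LLC spleen to 166, 169.5, 181 and 189 in TuMon2 (log2 difference 3.23 ± 0.31, adjusted p = 1.86e-08), and from 13.7, 4.53, 5.25 and 9.20 in MC38 spleen to 183, 251, 193 and 225 in TuMon1 (4.74 ± 0.34, adjusted p = 1.48e-10). Ccl4 reached 109, 103, 122 and 126 CPM in TuMon2 (4.33 ± 0.58, adjusted p = 2.33e-06) and 293, 343, 285 and 349 in TuMon1 (6.63 ± 0.65, adjusted p = 2.59e-08), with no library of either tumor near its spleen group. Ccl6 and Ccl9 rose in LLC tumors and did not rise together in MC38 tumors. Ccl6 was at 1460, 1580, 1463 and 1920 CPM in TuMon2 and 606, 622, 619.5 and 658 in LLC spleen (1.36 ± 0.15, adjusted p = 2.14e-08). In MC38 mice it fell, from 460.1, 453, 387 and 573 CPM in spleen to 232, 282, 255 and 308 in TuMon1 (-0.80 ± 0.14, adjusted p = 3.6e-05). Ccl9 rose by 1.90 ± 0.092, adjusted p = 6.88e-15 in LLC tumors. Its small rise in MC38 tumors, 0.40 ± 0.089, adjusted p = 0.000295, was no longer called without the 3 spleen libraries with fat cell transcripts, at 0.12 (adjusted p = 0.406, over all alternatives 6.27e-06 to 0.406).

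Ccl24 rose in LLC tumors, from 0.969, 0.655, 0.659 and 0.134 CPM in spleen to 39, 41.7, 37.6 and 143 in TuMon2 (log2 difference 6.72 ± 0.79, adjusted p = 3.94e-07). Replicate 4 of TuMon2 held more Ccl24 than the other 3 together, and without it the log2 difference was 5.98. In MC38 mice Ccl24 was at 0.542, 1.61, 0.768 and 0.655 CPM in TuMon1 and 0.824, 1.25, 2.48 and 0.331 in spleen, with overlap and a log2 difference of -0.56 ± 0.86, adjusted p = 0.574 (95% interval -2.24 to 1.12). Of 8 eosinophil, basophil and mast cell markers, Epx was at 0 in all 24 libraries from mice, and their sum lay at 0.151 to 0.858 CPM in TuMon2 against 1.81 to 2.84 CPM in LLC spleen. In libraries of sorted cells, a larger share of chemokine-making cells and more transcript per cell cannot be told apart.

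**Figure D3:**
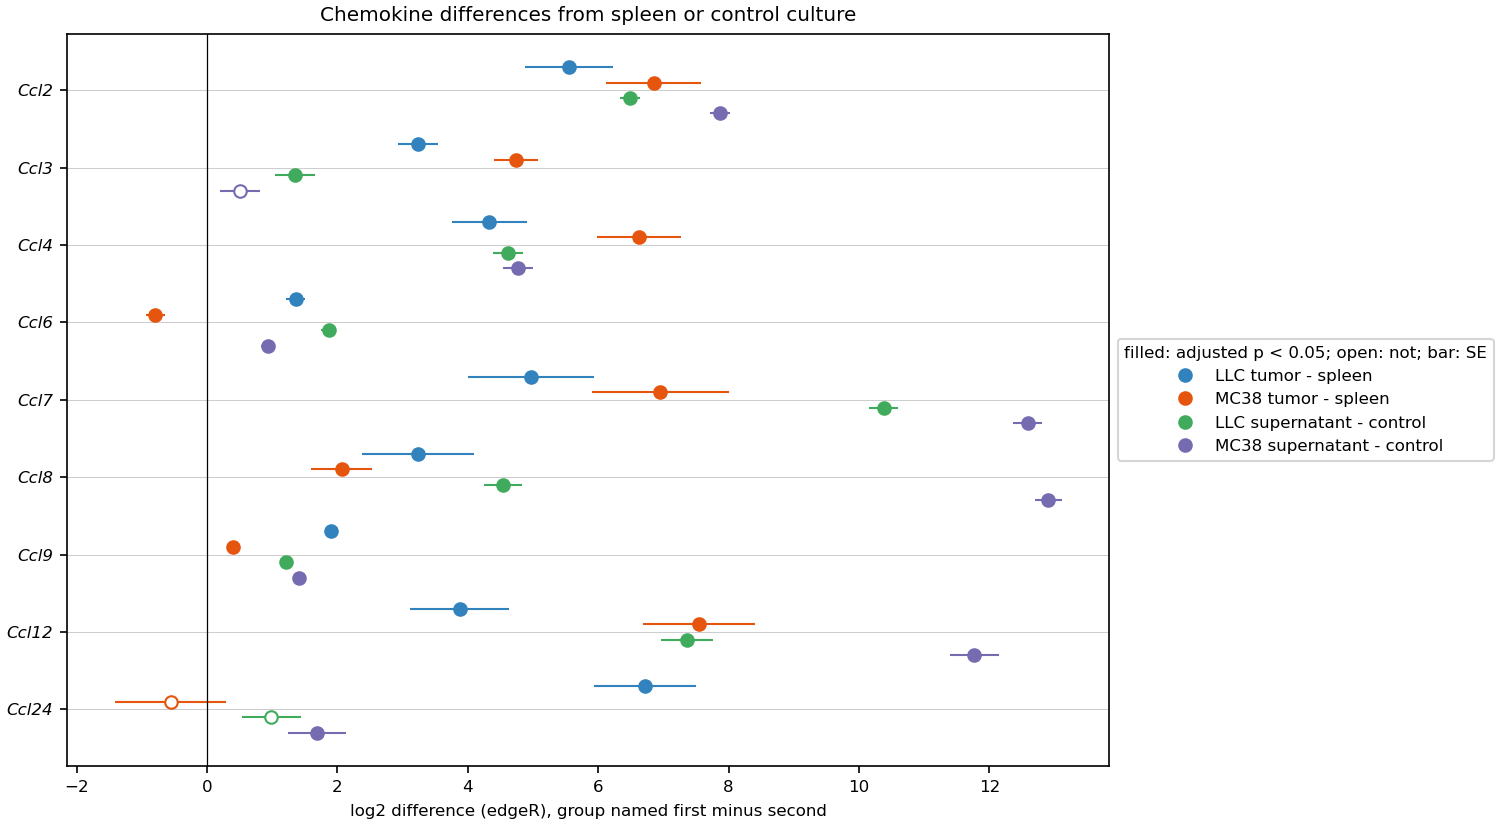
Log2 difference (edgeR) of each chemokine between tumor and spleen monocytes of LLC or MC38 mice and between cultures with LLC or MC38 supernatant and control cultures; filled points have an adjusted p under 0.05, open points do not, and bars are the SE. Ccl6 fell in MC38 tumors (-0.80), the only filled point left of 0, and in LLC tumors the point of Ccl24 lies farthest right (6.72).

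Whether these changes were unequal between the tumors was tested directly, by the difference of the differences. It was called for 3 genes higher in MC38 and 3 lower, among 23.8% and 19.1% of all genes. The changes of Ccl6 (-2.16 ± 0.21, adjusted p = 2.39e-08), Ccl9 (-1.49 ± 0.13, adjusted p = 2.67e-09) and Ccl24 (-7.28 ± 1.16, adjusted p = 6.1e-05) were smaller or downward in MC38 tumors. For Ccl24 the call was lost without the 3 MC38 spleen libraries with fat cell transcripts (-5.31, adjusted p = 0.384, over all alternatives 1.59e-12 to 0.384), and it stood at -6.52 without TuMon2 replicate 4 and -6.68 without MC38 spleen replicate 3. The rise of Ccl3 was larger in MC38 tumors (1.51 ± 0.42, adjusted p = 0.00697), and this too was lost without those libraries (1.29, adjusted p = 0.066, over all alternatives 0.000979 to 0.066). The larger rises of Ccl4 (2.31 ± 0.79, adjusted p = 0.0247) and Ccl12 (3.67 ± 1.13, adjusted p = 0.0135) were lost without the libraries with foreign transcripts (2.12, adjusted p = 0.088, and 3.66, adjusted p = 0.101) and without LLC spleen replicate 3. Ccl4 was also not called without MC38 spleen replicate 2 or 3, nor with the 4 groups alone. Without MC38 spleen replicate 1 Ccl4 was 3.39 and Ccl12 4.94. Without LLC spleen replicate 3 Ccl4 stood at 1.15 (adjusted p = 0.21, over all alternatives 0.0016 to 0.21) and Ccl12 at -1.25 (adjusted p = 0.585, over all alternatives 0.00375 to 0.585). Ccl2 (1.29 ± 0.84, adjusted p = 0.228), Ccl7 (1.98 ± 1.25, adjusted p = 0.215) and Ccl8 (-1.17 ± 1.03, adjusted p = 0.38) were not called; Ccl8 was called without that library, whose fellows are at 0 counts, and Ccl2 without MC38 spleen replicate 1 (2.36).

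Between the spleen groups themselves 1 gene was called higher in MC38 and 3 lower, where 14.4% of all genes were higher and 14% lower. Ccl8 was higher in MC38 spleen (log2 difference 4.24 ± 0.76, adjusted p = 0.000331), and at 0.90 (adjusted p = 0.941, over all alternatives 1.32e-07 to 0.941) without the libraries holding fat cell transcripts. Without LLC spleen replicate 3, which leaves LLC spleen at 0 counts, its fitted value was 9.04. With the spleen groups alone neither Ccl8 (adjusted p = 0.0629) nor Ccl3 (adjusted p = 0.165, over all alternatives 0.000669 to 0.514) was called. Ccl3 (-1.24 ± 0.31, adjusted p = 0.00558), Ccl6 (-0.42 ± 0.14, adjusted p = 0.0314) and Ccl9 (-0.52 ± 0.089, adjusted p = 0.000107) were lower in MC38 spleen, and none of the 3 was called without those libraries, which leaves 1 MC38 spleen library assumed to vary like the other groups. Ccl6 also lost its call under RLE and upper quartile scaling, with no filter, and without LLC spleen replicate 4 or MC38 spleen replicate 1, 2 or 3 (adjusted p 0.00104 to 0.941 over all alternatives). Ccl7 (-0.12 ± 0.96, adjusted p = 0.941) and Ccl12 (-0.58 ± 0.95, adjusted p = 0.694) were not called, and without LLC spleen replicate 3 both were called higher in MC38 spleen, at 4.43 and 4.29. Ccl2 (-0.90 ± 0.63, adjusted p = 0.309) and Ccl4 (-0.84 ± 0.62, adjusted p = 0.339) were called lower without MC38 spleen replicate 1. Ccl24 stood at 1.09 ± 0.91, adjusted p = 0.401. Of 13 interleukin 4 and STAT6 genes, a list taken up below, 1 was called higher and 3 lower in MC38 spleen. Their median was -0.21 against -0.07 over all genes. The higher one was Retnla, a secreted product of alternatively activated macrophages and of fat (6.71 ± 0.94, adjusted p = 4.89e-05).

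The comparison of TuMon1 with TuMon2 set the Sca1+ monocytes of MC38 tumors against the Sca1- monocytes of LLC tumors. TuMon1 held more Ccl8, Ccl12 and Ccl4, and TuMon2 more Ccl6, Ccl9 and Ccl24. These 3 genes higher and 3 lower stand beside 26.8% of all genes higher and 22.1% lower, and the median of the 9 was 0.39 against 0.06 over all genes. Ccl12, at 267, 362, 273 and 279 CPM in TuMon1 and 35.8, 29.9, 33.2 and 39.6 in TuMon2, was 8.52-fold higher in TuMon1 (log2 difference 3.09 ± 0.65, adjusted p = 0.000623). Ccl8 was 8.36-fold higher (3.06 ± 0.52, adjusted p = 7.5e-05) and Ccl4 2.76-fold higher (1.47 ± 0.49, adjusted p = 0.0187), each without overlap. Ccl6 was 5.96-fold lower in TuMon1 (-2.58 ± 0.15, adjusted p = 3.62e-12) and Ccl9 4.03-fold lower (-2.01 ± 0.092, adjusted p = 1.91e-14), with the lowest TuMon2 library at 1460 CPM of Ccl6 and the highest TuMon1 library at 308. Ccl24 was 72.9-fold lower (-6.19 ± 0.75, adjusted p = 1.43e-06) and without TuMon2 replicate 4 stood at -5.45.

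Ccl7 was not called between TuMon1 and TuMon2 (log2 difference 1.86 ± 0.81, adjusted p = 0.0652), although all TuMon1 libraries, at 481, 639, 491 and 461 CPM, lay above all TuMon2 libraries, at 141, 135, 126 and 168. The test takes its spread from all 6 groups, and Ccl7 ran from 0.0818 to 16.3 CPM among LLC spleen libraries. With TuMon1 and TuMon2 alone in the fit it was called at 1.82 (adjusted p = 1.43e-07, over all alternatives 1.43e-07 to 0.123), and it was called too without LLC spleen replicate 3 (1.81) and without the libraries with foreign transcripts (1.86). Ccl2 (0.39 ± 0.55, adjusted p = 0.584, 95% interval -0.68 to 1.46) and Ccl3 (0.27 ± 0.28, adjusted p = 0.446, 95% interval -0.27 to 0.82) were not called either. In the fit of the 2 groups alone both were called, Ccl2 at 0.36 (adjusted p = 0.004, over all alternatives 0.004 to 0.698) and Ccl3 at 0.23 (adjusted p = 0.0266, over all alternatives 0.0266 to 0.638). The sum of 10 macrophage markers moved with this comparison, at 9604 to 10540 CPM in TuMon1 and 5710 to 6012 in TuMon2. Mrc1, a gene of that list, went the other way, as given below. The part of macrophage markers in the chemokine differences was not tested.

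Macrophages of MC38 tumors held more of 4 chemokines and less of 3 than those of LLC tumors, beside 22.4% of genes higher and 22.9% lower. Ccl8 was at 38.2, 56.7, 55.0 and 38.5 CPM in MC38 and 6.12, 2.48, 3.38 and 5.30 in LLC macrophages (log2 difference 3.44 ± 0.47, adjusted p = 5.79e-06). Ccl12 (2.18 ± 0.62, adjusted p = 0.00716), Ccl4 (2.05 ± 0.50, adjusted p = 0.00231) and Ccl3 (1.23 ± 0.28, adjusted p = 0.00134) were also higher in MC38 macrophages, with no overlap. Ccl6, at 154, 169.6, 181 and 244 CPM against 885, 904, 673 and 1091, was lower (-2.25 ± 0.15, adjusted p = 1.49e-11), as was Ccl9 (-1.97 ± 0.092, adjusted p = 1.45e-14). Ccl24 was lower at -1.91 ± 0.62, adjusted p = 0.0173, with 5.998, 5.19, 5.23 and 29.1 CPM in LLC and 1.67, 3.52, 2.63 and 4.07 in MC38 macrophages. That call was lost without LLC macrophage replicate 4 (-0.88, adjusted p = 0.194, over all alternatives 0.00926 to 0.194), without MC38 macrophage replicate 1 and in a fit of these groups alone. Ccl7 (1.86 ± 0.81, adjusted p = 0.0682) and Ccl2 (0.74 ± 0.55, adjusted p = 0.292) were higher in every MC38 macrophage library and not called; with these groups alone in the fit both were, at 1.86 and 0.74, and Ccl7 also without LLC spleen replicate 3 and without the libraries with foreign transcripts (1.87, adjusted p = 0.0334, over all alternatives 7.25e-09 to 0.131).

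Macrophages were next set against monocytes of the same tumor. In MC38 tumors 1 chemokine was higher and 2 lower in macrophages, beside 24.8% of genes higher and 27.9% lower. Ccl8 rose from 13.4, 16.5, 12.8 and 14.2 CPM in TuMon1 to 38.2, 56.7, 55.0 and 38.5 in macrophages (log2 difference 1.73 ± 0.43, adjusted p = 0.00226), and Ccl9 (-0.73 ± 0.089, adjusted p = 2.6e-07) and Ccl6 (-0.53 ± 0.14, adjusted p = 0.00378) fell. The other 6 were not called, with log2 differences from -0.48 ± 0.55 for Ccl2 to 1.74 ± 0.78 for Ccl24. In a fit of these 2 groups alone Ccl2 (-0.46), Ccl4 (-0.33), Ccl7 (0.53) and Ccl24 (1.75) were also called. In LLC tumors 1 was higher and 4 lower, beside 29.2% and 26.3% of genes. Ccl24 fell from 39, 41.7, 37.6 and 143 CPM in TuMon2 to 5.998, 5.19, 5.23 and 29.1 in macrophages (-2.54 ± 0.58, adjusted p = 0.00109), and Ccl9 (-0.77 ± 0.089, adjusted p = 1.03e-07), Ccl6 (-0.85 ± 0.14, adjusted p = 2.61e-05) and Ccl3 (-0.85 ± 0.28, adjusted p = 0.0143) fell as well.

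Without TuMon2 replicate 4 the fall of Ccl24 was -1.81, and without LLC macrophage replicate 4 it was -3.57; both libraries carry the same replicate number and are the highest of their groups. The rise of Ccl8 in LLC macrophages (1.35 ± 0.54, adjusted p = 0.0414) concerned levels of 2.48 to 6.12 CPM against 1.14 to 2.90 and kept its call in 9 of 17 alternatives (adjusted p 0.00353 to 0.134). Leaving out any of LLC macrophage replicates 1 and 4 or TuMon2 replicates 2, 3 and 4 ended it, as did testing with no filter (adjusted p = 0.0808) and DESeq2 (adjusted p = 0.0881). Ccl4 (-0.94 ± 0.49, adjusted p = 0.113) was called without LLC spleen replicate 3 and without the libraries with foreign transcripts (-0.94, adjusted p = 0.0344, over all alternatives 2.23e-05 to 0.215). Ccl2, Ccl4, Ccl7 and Ccl12 were not called in the fit of 6 groups and were in a fit of the LLC tumor groups alone, Ccl2 and Ccl4 lower at -0.84 and -0.95, Ccl7 and Ccl12 higher at 0.50 and 0.74. Macrophages departed from monocytes unequally in the 2 tumors for Ccl24, the 1 call among the 9 genes (MC38 minus LLC 4.28 ± 0.96, adjusted p = 0.00477), in a test that called 6.25% of genes higher and 8.27% lower. This value of Ccl24 was 3.54 without TuMon2 replicate 4 and 5.31 without LLC macrophage replicate 4, called in either case. With only the tumor groups in the fit, Ccl3 (0.96), Ccl4 (0.59) and Ccl12 (-0.91) were called too, and Ccl3 also without the libraries with foreign transcripts (0.96, adjusted p = 0.0484, over all alternatives 2e-05 to 0.191).

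**Figure D4:**
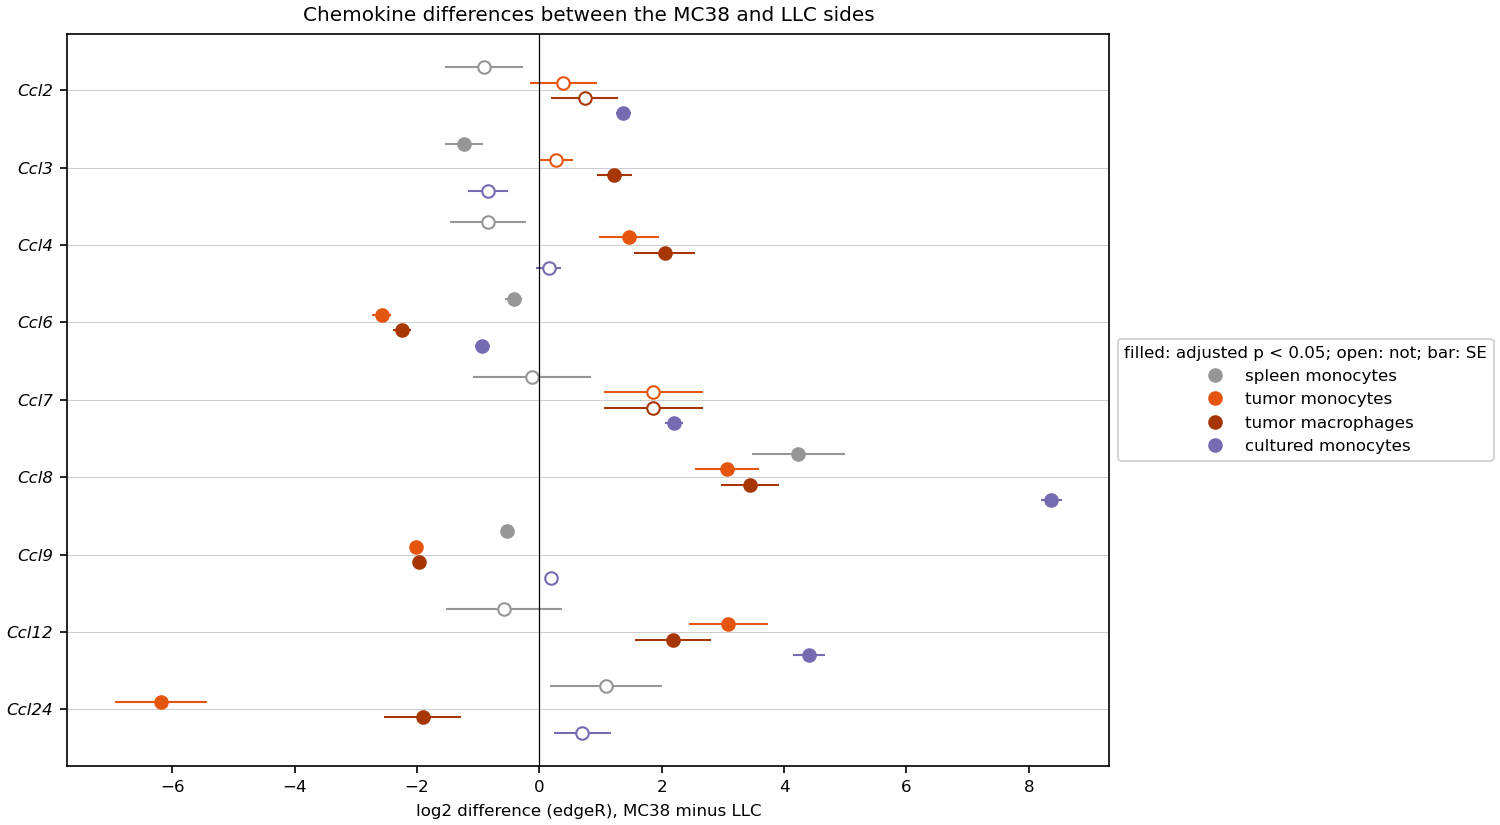
Log2 difference (edgeR) of each chemokine, MC38 minus LLC, in spleen monocytes, tumor monocytes, tumor macrophages and cultured monocytes given supernatant; filled points have an adjusted p under 0.05, open points do not, and bars are the SE. Ccl8 lies right of 0 in all 4 settings and farthest in culture (8.37), while Ccl24 lies far left in tumor monocytes (-6.19).

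In culture, each supernatant raised 8 of the 9 chemokines over untreated bone marrow monocytes. MC38 supernatant left out Ccl3 and LLC supernatant Ccl24. With MC38 supernatant 35.4% of 12603 genes were higher and 32.5% lower, and the median of the 9 was 4.77 against 0.05 over all genes. With LLC supernatant 32.3% were higher and 36.1% lower, and the medians were 4.54 and -0.07. Both comparisons share the 4 control libraries, so their values stand side by side and are not counted as separate support. Cell markers moved too. The sum of 10 macrophage markers lay at 693 to 846 CPM in control cultures. It lay at 9945 to 10130 CPM with LLC and 7963 to 9118 CPM with MC38 supernatant. The sum of 10 monocyte markers lay at 9570 to 11800, 4283 to 4380 and 6189 to 7400 CPM in the same order. Their part in the chemokine differences was not tested. Ccl2 was at 4.79, 4.31, 6.31 and 6.24 CPM in control cultures, 486, 448 and 535 with LLC supernatant (log2 difference 6.49 ± 0.15, adjusted p = 1.4e-10) and 1379, 1307 and 1127 with MC38 supernatant (7.86 ± 0.16, adjusted p = 7.55e-11). Ccl7 had 6, 5, 4 and 1 counts in the controls, and reached 256, 223 and 292 CPM with LLC (10.38 ± 0.22, adjusted p = 9.59e-11) and 1255, 1244 and 1061 CPM with MC38 supernatant (12.59 ± 0.23, adjusted p = 3.79e-11). Controls held so few reads of Ccl7, Ccl8 and Ccl12 that the size of their fitted differences depends on small counts.

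Ccl12 had 4, 5, 0 and 0 counts in the controls, 18.4, 17.7 and 19.0 CPM with LLC (log2 difference 7.36 ± 0.39, adjusted p = 1.85e-07) and 426, 402 and 336 CPM with MC38 supernatant (11.77 ± 0.38, adjusted p = 5.3e-09). Without control replicate 2 these differences of Ccl12 were 8.23 and 12.63. Ccl8 had 2, 3, 1 and 1 counts in the controls and only 1.77, 2.38 and 1.92 CPM with LLC supernatant (4.54 ± 0.29, adjusted p = 2.71e-07), and 707, 709.6 and 604 CPM with MC38 supernatant (12.90 ± 0.21, adjusted p = 1.94e-11). Ccl4 rose with either, from 1.43, 1.55, 2.49 and 2.83 CPM to 45.9, 47.2 and 60.5 with LLC (4.62 ± 0.23, adjusted p = 5.92e-08) and 58.9, 61.8 and 50.0 with MC38 (4.77 ± 0.23, adjusted p = 4.6e-08). Ccl3 differed among the controls, at 22.4, 30.8, 60.4 and 43.6 CPM, and rose with LLC supernatant to 93.3, 83.9 and 123 (1.35 ± 0.31, adjusted p = 0.00392). With MC38 supernatant it was at 61.7, 56.2 and 49.5 CPM, overlapping the controls (0.50 ± 0.31, adjusted p = 0.176), and it was called without control replicate 3, at 0.82 (adjusted p = 0.0187, over all alternatives 0.0187 to 0.319). Ccl6 and Ccl9, already high in control cultures, rose by 1.86 ± 0.11 and 1.21 ± 0.10 with LLC and by 0.94 ± 0.11 and 1.41 ± 0.10 with MC38 supernatant. Ccl24 stayed at or under 1.28 CPM in all 10 cultures, with a called rise with MC38 supernatant (1.69 ± 0.45, adjusted p = 0.0068) and none called with LLC (0.98 ± 0.45, adjusted p = 0.0775), where leaving out control replicate 1 gave 1.504 (adjusted p = 0.00924, over all alternatives 0.00924 to 0.236).

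Set against each other, MC38 supernatant gave more of the Ccl2 neighbourhood than LLC supernatant, with 4 chemokines higher and 1 lower beside 21.6% and 18.5% of all genes. Ccl8 was 331-fold higher (log2 difference 8.37 ± 0.17, adjusted p = 2.46e-09), Ccl12 21.1-fold (4.40 ± 0.26, adjusted p = 2.58e-06), Ccl7 4.62-fold (2.21 ± 0.14, adjusted p = 1.95e-06) and Ccl2 2.60-fold (1.38 ± 0.13, adjusted p = 2.39e-05), and no libraries overlapped. Among the 9 genes, these 4 lie on chromosome 11 in the order Ccl2, Ccl7, Ccl12 and Ccl8. Their log2 differences followed the same order, which was not tested and leaves out any other gene of that stretch. Ccl6 was lower with MC38 supernatant (-0.93 ± 0.12, adjusted p = 0.00021). Ccl3 was at 93.3, 83.9 and 123 CPM with LLC and 61.7, 56.2 and 49.5 with MC38 supernatant, without overlap and not called (-0.84 ± 0.33, adjusted p = 0.0733); DESeq2 gave -0.89 (adjusted p = 0.0089, over all alternatives 0.00726 to 0.21). Ccl4 (0.15 ± 0.21, adjusted p = 0.608, 95% interval -0.26 to 0.56) and Ccl24 (0.70 ± 0.47, adjusted p = 0.262) were not called. Ccl9 (0.20 ± 0.10, adjusted p = 0.152) was called without MC38 supernatant replicate 3, the library with fibroblast transcripts, at 0.29 (adjusted p = 0.0303, over all alternatives 6.56e-07 to 0.359). That library was the lowest of its group in 8 of the 9 genes.

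The MC38 to LLC difference in culture was tested against that between tumor monocytes in 1 fit of all 34 libraries, which called 16% of 14582 genes higher and 14.8% lower. For 4 chemokines the difference was larger, or less negative, in culture and for 1 it was smaller. Ccl8 was at 707, 709.6 and 604 CPM in culture against 13.4, 16.5, 12.8 and 14.2 in TuMon1, with LLC-side levels under 3 CPM in either setting (5.25 ± 0.65, adjusted p = 4.74e-07). Ccl9, lower in TuMon1 than in TuMon2, was not called between the supernatants (2.17 ± 0.15, adjusted p = 8.26e-12), and Ccl6 was less unequal in culture (1.61 ± 0.22, adjusted p = 1.85e-06). Ccl24, abundant in TuMon2, was near 0 in culture with LLC supernatant (0.476, 0.871 and 0.683 CPM), which gave 6.83 ± 1.01, adjusted p = 7.07e-06, and 6.11 without TuMon2 replicate 4. Ccl3 went the other way (-1.15 ± 0.44, adjusted p = 0.0457), a call kept in 9 of 23 alternatives (adjusted p 0.00043 to 0.126) and lost without the libraries with foreign transcripts (-0.99, adjusted p = 0.0768), with no filter, and without any 1 of TuMon2 replicates 1 to 4, TuMon1 replicates 2 and 4, LLC supernatant replicates 1 and 3 and MC38 supernatant replicates 1 to 3. Ccl2 (0.94 ± 0.71, adjusted p = 0.341), Ccl7 (0.31 ± 1.002, adjusted p = 0.88), Ccl4 (-1.35 ± 0.63, adjusted p = 0.108) and Ccl12 (1.27 ± 0.80, adjusted p = 0.246) were not called; with the 4 groups alone Ccl2 (0.94), Ccl4 (-1.36) and Ccl12 (1.27) were, and without LLC spleen replicate 3 Ccl4 and Ccl12 were. Levels from mice and from culture were scaled in separate fits where CPM are printed side by side.

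The receptors of these chemokines moved in different directions. Ccr1 was at 20.4 to 56.0 CPM in LLC spleen and 619.6 to 803 in TuMon2 (log2 difference 4.47 ± 0.30, adjusted p = 7.45e-11), and rose by 5.42 ± 0.32, adjusted p = 5.47e-12 in MC38 tumors. Ccrl2, which binds chemoattractants without drawing cells, rose by 4.35 ± 0.42, adjusted p = 2.44e-08 in LLC and 5.79 ± 0.45, adjusted p = 7.8e-10 in MC38 tumors. Ccr2 rose far less, by 0.60 ± 0.12, adjusted p = 8.45e-05 in LLC and 0.44 ± 0.12, adjusted p = 0.00167 in MC38 tumors. It was lower in TuMon1, at 791, 749, 893 and 799 CPM, than in TuMon2, at 1548, 1746, 1499 and 1508 (-0.96 ± 0.12, adjusted p = 2.61e-07). Of the Ccr2 ligands, Ccl12 was called higher in TuMon1, and Ccl2 and Ccl7 were not called in the fit of 6 groups. Ccr2 was lowest in MC38 macrophages, at 244, 239, 222 and 245 CPM (-1.77 ± 0.12, adjusted p = 1.96e-11 against TuMon1). It fell less in LLC macrophages (-0.36 ± 0.12, adjusted p = 0.0113), a difference that was called (-1.41 ± 0.16, adjusted p = 1.91e-06).

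In culture Ccr2 fell with either supernatant. Ccr2 was at 1408, 1118, 1452 and 1443 CPM in controls, 266, 258 and 261 with LLC supernatant (log2 difference -2.37 ± 0.15, adjusted p = 1.89e-07) and 760, 655 and 497 with MC38 supernatant (-1.09 ± 0.14, adjusted p = 5.27e-05). It was thus higher with MC38 than with LLC supernatant (1.28 ± 0.15, adjusted p = 8.77e-05), the opposite of the order in tumor monocytes, and that difference was called (2.21 ± 0.21, adjusted p = 1.94e-09). Ccr1 rose by 1.88 ± 0.10, adjusted p = 4.7e-08 with LLC and 2.98 ± 0.10, adjusted p = 1.84e-09 with MC38 supernatant. Ccr3, the receptor of Ccl24, rose with LLC (4.01 ± 0.73, adjusted p = 0.000657) and MC38 supernatant (7.76 ± 0.67, adjusted p = 2.54e-06), to means of 0.269 and 3.66 CPM from 0.00915 in controls. Its mean was at most 1.01 CPM in the groups from mice. Ccr8, through which mouse Ccl8 acts, had a mean of at most 0.0628 CPM in any group.

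**Figure D5:**
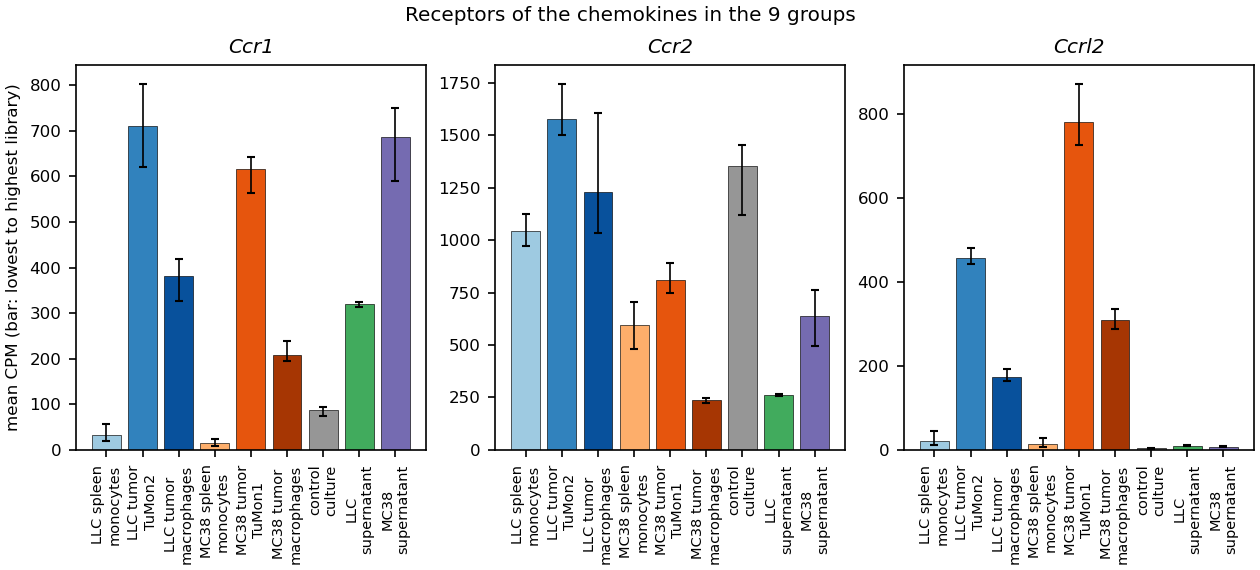
Mean CPM of Ccr1, Ccr2 and Ccrl2 in the 9 groups (3 or 4 libraries each, linear axes from 0); error bars run from the lowest to the highest library. Ccr1 is low in spleen and control groups, and Ccr2 is low in MC38 macrophages (238) and with LLC supernatant (262).

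Of 12 other CC chemokines 6 passed the filter in mice and 4 in culture, and Ccl5 had the highest mean level of the list. Ccl5, which attracts T cells and monocytes, was at 194 to 255 CPM in TuMon1 and 16.5 to 24.6 in TuMon2 (log2 difference 3.43 ± 0.24, adjusted p = 3.78e-10). It rose from spleen in MC38 mice (5.43 ± 0.27, adjusted p = 2.49e-13) and was not called in LLC mice (0.41 ± 0.23, adjusted p = 0.132). Ccl22 rose from TuMon2 to LLC macrophages (2.53 ± 0.34, adjusted p = 1.17e-06), as did Ccl17 (2.84 ± 0.67, adjusted p = 0.000849); both act on Ccr4. With MC38 against LLC supernatant Ccl5 (3.09 ± 0.67, adjusted p = 0.00451) and Ccl22 (4.63 ± 1.04, adjusted p = 0.0112) were higher at low levels, with means of 4.24 and 1.82 CPM.

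Genes of 3 pathways linked to chemokine transcription or decay were followed as lists. Of 15 NF-kappaB feedback genes, which NF-kappaB induces and which in part restrain it, 9 were higher and 3 lower in TuMon1 than in TuMon2, beside 26.8% and 22.1% of all genes, with a median log2 difference of 0.41 against 0.06 over all genes. The smallest adjusted p were those of Nfkbie (1.31 ± 0.11, adjusted p = 9.19e-10) and Tnfaip3 (0.98 ± 0.12, adjusted p = 4.88e-07). From spleen to tumor 13 rose and 1 fell in MC38 mice (33.5% and 36.6% of all genes) and 9 rose and 2 fell in LLC mice (28.6% and 34%), with medians of 1.11 and 0.43 against -0.04 and -0.05. Tnfaip3 rose by 3.46 ± 0.14, adjusted p = 6.37e-17 and 2.27 ± 0.13, adjusted p = 1.2e-13. From monocyte to macrophage 12 of 15 fell in MC38 tumors (27.9% of all genes) and 14 in LLC tumors (26.3%), with 0 and 1 higher and medians of -0.76 and -0.75 against -0.01 and 0.06. In culture 8 fell and 4 rose with MC38 supernatant (32.5% and 35.4% of all genes) and 12 fell and 3 rose with LLC supernatant (36.1% and 32.3%), with medians of -0.50 and -0.73 against 0.05 and -0.07, while Tnip3 (4.64 ± 0.14, adjusted p = 6.83e-10; 3.98 ± 0.13, adjusted p = 1.99e-09) and Tnfaip3 (1.49 ± 0.094, adjusted p = 2.02e-07; 1.67 ± 0.094, adjusted p = 8.91e-08) rose. Of 9 genes that act on AU-rich or chemokine transcripts, 1 was higher and 4 were lower in TuMon1 than in TuMon2. These stand beside 26.8% and 22.1% of all genes, with a median log2 difference of -0.18 against 0.06. The higher one was Zc3h12a, an RNase that cuts Ccl2 and cytokine transcripts (0.61 ± 0.10, adjusted p = 3.79e-05). Zfp36l1 had the smallest adjusted p of the lower ones (-0.67 ± 0.125, adjusted p = 9.52e-05). Zc3h12a rose from spleen in both tumors (2.87 ± 0.11, adjusted p = 7.33e-17 in MC38, and 1.93 ± 0.11, adjusted p = 1.14e-13 in LLC). Zfp36, which destabilises such transcripts, rose from spleen by 3.004 ± 0.15, adjusted p = 1.51e-14 in MC38 and 2.26 ± 0.15, adjusted p = 2.66e-12 in LLC tumors. Of the list of 9, 4 rose and 1 fell in MC38 tumors, where 33.5% of all genes rose, and 6 rose and 1 fell in LLC tumors, where 28.6% did, with medians of only 0.25 and 0.27. In culture 2 rose and 6 fell with MC38 supernatant (35.4% and 32.5% of all genes) and 1 rose and 7 fell with LLC supernatant (32.3% and 36.1%), with medians of -0.44 and -0.73.

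Of 13 interleukin 4 and STAT6 genes, the pathway best known for inducing Ccl24, 3 were higher and 5 lower in TuMon1 than in TuMon2, beside 26.8% and 22.1% of all genes, and the median log2 difference of the list was 0.23 against 0.06 over all genes. Socs1, a feedback inhibitor of cytokine signalling, was higher (1.57 ± 0.23, adjusted p = 7.38e-06), as were Egr2 and Pdcd1lg2, named after their values were seen. Among the lower ones were Stat6 (-0.39 ± 0.081, adjusted p = 0.000298), Mrc1 (-1.55 ± 0.31, adjusted p = 0.000374) and Chil3 (-1.90 ± 0.41, adjusted p = 0.000866). From spleen to tumor 7 of the list rose and 6 fell in MC38 mice (33.5% and 36.6% of all genes). In LLC mice 7 rose and 4 fell (28.6% and 34%). The medians of the list were 2.16 in MC38 and 1.48 in LLC mice, against -0.04 and -0.05 over all genes. MC38 macrophages held more of 2 and less of 7 than LLC macrophages, beside 22.4% and 22.9% of all genes, with a list median of -0.38. Among the lower ones were Arg1 (-3.54 ± 0.70, adjusted p = 0.000367) and Irf4 (-2.06 ± 0.16, adjusted p = 9.35e-11). Of 12 tested in culture, 7 rose and 4 fell with MC38 supernatant (35.4% and 32.5% of all genes). With LLC supernatant 6 rose and 4 fell (32.3% and 36.1%). Medians of the 12 were 2.05 with MC38 and 0.74 with LLC supernatant, against 0.05 and -0.07 over all genes. In culture Arg1 went from 0.315 to 1.63 CPM to 2298 to 2699 with MC38 (11.79 ± 0.33, adjusted p = 1.41e-09) and 1364 to 1441 with LLC supernatant (10.93 ± 0.32, adjusted p = 2.18e-09), while Ccl24 stayed at or under 1.28 CPM. Mrc1 rose with both as well (6.48 ± 0.14, adjusted p = 1.14e-10; 7.03 ± 0.14, adjusted p = 8.07e-11), and Chil3 fell (-5.11 ± 0.12, adjusted p = 1.65e-10; -7.40 ± 0.13, adjusted p = 4.09e-11).

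Likeness of pattern was described by Pearson's r of mean log2 CPM over the 9 groups, which share libraries and scaling, and carries no test. Among the chemokines Ccl7 and Ccl12 were most alike (r = 0.98), then Ccl2 and Ccl7 (0.97) and Ccl2 and Ccl12 (0.94). Ccl3 and Ccl4 reached 0.92 and Ccl6 and Ccl9 0.89, whereas Ccl6 and Ccl12 stood at -0.08. Ccl8 was nearest to Ccl12 (0.86) and Ccl24 to Ccl9 (0.53). Among 9803 other genes, those nearest to Ccl2 were Slc37a2 (0.991), Rab7b (0.989) and Aopep (0.987), and to Ccl7 Dppa3 (0.992), C3ar1 (0.992) and Ms4a7 (0.990). Nearest to Ccl12 were Fmnl2 (0.988), Anapc10 (0.980) and Ccl7 itself. For Ccl3 they were Id2, Xrcc4 and Eif4a1 (0.981 to 0.959), for Ccl4 Pdcl3, Slc3a2 and Got1 (0.992 to 0.983), for Ccl6 Sec63, Ctnna1 and Sbno1 (0.959 to 0.948) and for Ccl9 Gnai3, Fli1 and Mapk8ip3 (0.970 to 0.942). The nearest genes to Ccl8 (Emc7, Pdgfc and Krcc1, 0.954 to 0.909) and Ccl24 (Arrdc3, Ube2g1 and Jmjd6, 0.895 to 0.886) were less alike. The number of genes searched is large for 9 points.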

How the data were processed

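RNA of sorted or cultured cells was made into libraries with a stranded mRNA kit from 100 ng RNA, per the labels' protocols. The authors deposited estimated counts, made from the reads per gene and some not whole, in 1 table that names genes by Entrez identifier. The submitters' processing notes name CASAVA 1.8.2 and the build GRCm38 (mm10), and which aligner or counter made the table is not given in the sources used here. Whole counts had been assumed in planning the tests, so values were rounded before edgeR. Symbols came from RefSeq (GRCm38.p6) for 24375 of 24475 identifiers; the 100 others held 1.43% of counts and stayed in the library sizes.

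Groups came from sample titles; in MC38 mice the tumor field gives a different name for each library and was not used. edgeR 4.0.16 in R 4.3.3 (filterByExpr, TMM, robust quasi-likelihood F-test, 2-sided, Benjamini-Hochberg over all genes tested, threshold 0.05) was fitted to 24 libraries from mice (13200 genes, biological coefficient of variation 0.177), to 10 cultures (12603 genes, 0.282) and, for 1 comparison of both, to all 34 (14582 genes, 0.271). Of 13 comparisons, 3 asked whether a difference was itself unequal between settings. An SE was obtained by dividing the absolute log2 difference by the root of the F statistic. CPM used TMM library sizes of the fit, separately for mice and cultures. Levels between genes were compared per kb of the annotated transcript. Depth and counting error limit values under about 1 CPM. Steps were tested on simulated counts.

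All 9 chemokines were named in every comparison and, of each list, at most 4 genes by smallest adjusted p in a comparison plus Ccr1 and Ccr2; Ccrl2, Ccr3 and Ccr8 were also named after their values were seen wherever they fell outside this rule. Results of some listed genes are not reported here. The chemokines, lists and tests were chosen with earlier results of these data known. For likeness, genes with at least 10 CPM in a group were searched and predicted genes left out. Each value was recomputed with 2 other scalings (RLE, upper quartile), without the filter, with a minimum of 5 CPM in 3 libraries, with DESeq2 1.42.0, with only the groups compared, with the replicate number as a block, without the libraries holding foreign transcripts (MC38 spleen replicates 1 to 3, control 2, MC38 supernatant 3) and without each library in turn; leaving out LLC spleen replicate 3 in every comparison was added after its values were seen. Python 3.11.15 with pandas 2.3.3 and matplotlib 3.10.9 drew the figures.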

Additional observations from a re-analysis of the deposited data

Results flagged for a closer look

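Of 63 groups of 4 libraries tested for a library far from its group, 11 had one; chance gives about 1 in 20. In 5 cases it was LLC spleen replicate 3, with 25.5 CPM of Ccl2 (next highest library 5.56), 14.1 of Ccl4 (3.10), 16.3 of Ccl7 (0.323), 0.577 of Ccl8 (0) and 8.12 of Ccl12 (0.129). This library also held 44.0 CPM of C1qa, 50.5 of C1qb and 27.8 of C1qc, against at most 3.07, 9.78 and 3.89 in the other 3. The part of macrophage RNA in its chemokine counts was not tested.

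Ccl24 stood out in TuMon2 replicate 4 (142.6 CPM, next 41.7) and in LLC macrophage replicate 4 (29.1 CPM, next 5.998). The labels do not say whether these libraries come from the same mouse. In TuMon1 replicate 2, Ccl7 (639 CPM, next 491) and Ccl12 (362 CPM, next 279) were high together. In control culture replicate 2, Ccl6 (375 CPM, next 467) and Ccl9 (426 CPM, next 519.8) were low together, in the library with epithelial markers.

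Differences between groups under the same contrast were called in 12 cases by a test of the difference itself, given as MC38 minus LLC on the log2 scale. For tumor minus spleen they were Ccl3 (1.51), Ccl4 (2.31), Ccl6 (-2.16), Ccl9 (-1.49), Ccl12 (3.67) and Ccl24 (-7.28). For macrophage minus monocyte it was Ccl24 (4.28). For culture minus tumor they were Ccl3 (-1.15), Ccl6 (1.61), Ccl8 (5.25), Ccl9 (2.17) and Ccl24 (6.83). Those of Ccl4 and Ccl12 for tumor minus spleen were 1.15 and -1.25 without LLC spleen replicate 3 and 2.12 and 3.66 without the libraries with foreign transcripts, called in neither case. Those of Ccl3 and Ccl24 for tumor minus spleen and of Ccl3 for culture minus tumor were also not called without the latter.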

How the results depend on the processing

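Of 2091 values of single chemokines under an alternative, 1971 kept direction and side of the threshold, 48 lost and 40 gained a call and 32 changed sign. DESeq2 gave no adjusted p for 30 further values, of Ccl2, Ccl7 and Ccl12. Counts of called genes stayed within 1.5 times in 11 of 13 comparisons. For MC38 minus LLC spleen monocytes the count was 3755, and 1584 with these groups alone, 18 without the libraries with foreign transcripts and 2741 to 6349 leaving out 1 library, the highest without MC38 spleen replicate 4. For the difference of tumor minus spleen it was 5661, and 3641 without the foreign transcripts. Signs turned mainly for values that were not called. MC38 minus LLC spleen ran, leaving out 1 library, from -2.02 to 0.41 for Ccl2, -1.97 to 0.27 for Ccl4, -1.34 to 4.43 for Ccl7 and -1.89 to 4.29 for Ccl12; each low end is without MC38 spleen replicate 1 and each high end without LLC spleen replicate 3, which was also the alternative chosen after seeing the data. The tumor minus spleen difference ran from -0.066 to 2.36 for Ccl2, -2.62 to 3.15 for Ccl7 and -1.25 to 4.94 for Ccl12, and MC38 tumor minus spleen from -1.01 to 0.015 for Ccl24. Without the libraries with foreign transcripts these turned to 2.17 for Ccl8 (difference), 0.21 for Ccl7 and -0.88 for Ccl24 (spleens) and 1.41 for Ccl24 (MC38 tumor). Ccl7 between spleens was 0.12 with these groups alone. The macrophage minus monocyte difference was -0.034 for Ccl7 under upper quartile scaling and, leaving out 1 library, -0.086 to 0.13 for Ccl7 and -0.012 to 0.12 for Ccl9. The cause of these turns was not tested.

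Correlations of same-numbered deviations ran from -0.36 to 0.27, both ends between control and MC38 supernatant cultures. Between monocytes and macrophages of the same tumor they ran from -0.03 to 0.15 (LLC) and -0.01 to 0.15 (MC38). In each, 3 of 4 libraries matched best with their own number, as did 3 between TuMon2 and MC38 macrophages, of the other tumor line. Whether numbers pair libraries within a tumor stays undecided. The block, which joins equal numbers across both tumor lines, cannot decide it. With the replicate block the count for TuMon1 minus TuMon2 was 6445 in place of 6449, for MC38 minus LLC supernatant 4235 in place of 5055, no count moved over 1.5 times, and Ccl7 between spleens turned to 0.039. The block also ended the calls of Ccl8 in LLC macrophages minus monocytes (1.35, adjusted p = 0.0549) and Ccl3 in culture minus tumor (-1.11, adjusted p = 0.0666) and changed no other chemokine call. Upper quartile scaling moved the chemokines by at most 0.147 on the log2 scale (LLC macrophages minus monocytes), where it raised the share of higher calls from 52.6% to 66.1%; the share rose from 47.1% to 58.1% in MC38 macrophages and from 50.7% to 66.8% (RLE 62.1%) between spleens. Depth limits Ccl7, Ccl8 and Ccl12 in control cultures and Ccl8 in LLC spleen, a few counts per library.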
